A study of Drosophila melanogaster with 3 samples.

Results

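The 41 genes described here are homeobox genes of the head, eye, brain and appendages, together with homeobox genes used by single classes of neurons. Another 4, hth, exd, achi and vis, are grouped here as TALE cofactors. The 41 were listed by name, as homeobox genes outside the Hox, pair-rule and segment polarity sets. All 41 were found among the 13945 protein-coding genes annotated on the 6 main chromosome arms of Drosophila melanogaster. Binding of the Sox-family factor D (Dichaete) at these genes was read from peak lists of chromatin immunoprecipitation followed by sequencing. Each gene was given a territory, which is the annotated gene with 2 kb added on each side, and the binding summits inside it were counted.

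The embryos came from a transgenic line that stably expresses D fused at its C terminus to eGFP. They were whole embryos of both sexes, pooled, aged 0 to 14 hours. An antibody against GFP precipitated the sonicated chromatin of 3 biological replicates, which form 1 group, and whether the control chromatin carried the transgene was not stated in the sources used here. With 1 group and no other condition, the comparisons below are between genes and are descriptions with no test. All cells and all hours of the collection were mixed, so a summit present in few cells and a weak summit in many cells cannot be told apart.

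Homeobox genes encode transcription factors that hold the homeodomain, a DNA-binding fold that recognises short AT-rich sequences. In the fly embryo such genes divide the head and brain into territories, start the eye primordium, and later give single neurons their identity. D is an HMG-box protein of the Sox family that bends DNA, is made in segmenting embryos, in the head and in neural stem cells of the ventral nerve cord and brain, and binds a short core related to ACAAT.

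The authors' list of peaks that passed the irreproducible discovery rate (IDR) procedure held 5047 peaks on Release 6 of the genome (dm6). Its signal values, the authors' peak heights in a unit that was not stated, ran from 188 to 4534 with a median of 310. The list on the pooled replicates, deposited as peaks and background used as input for IDR, held 30000 regions. Each replicate's own list also held 30000. The medians of the replicate lists were 28.2, 35.0 and 43.2, so heights in a replicate are given as multiples of that replicate's median. An IDR summit was called recovered in a replicate where one of that replicate's 5047 highest summits lay within 200 bp. Of all IDR summits, 50.01% were recovered in replicate 1, 85.2% in replicate 2 and 83.9% in replicate 3, so replicate 1 stood apart from the other two.

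Of the 41 homeobox genes, 18 held at least 1 IDR summit, which is 43.9% (exact 95% interval 28.5 to 60.3, counting error only). Across all protein-coding genes the share was 30.4%, but the homeobox genes are long: their median territory was 15247 bp against 6166 bp for all genes. For each of the 41, the 200 other genes nearest in territory length gave a share with a summit, and these shares added up to 19.97 genes. The count of 18 was therefore 0.90 of that of genes of like length. The interval treats the genes as independent draws, but they were listed by name and some are neighbours, so the ratio was not tested. The genes together held 39 distinct summits, against 41.04 from the like-length means.

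The summits were unevenly spread over the 41 genes. There were 23 genes with none, 9 with 1, 5 with 2 and 3 with 3, and homothorax (hth) alone held 11. Thus 9 of the 41 held 2 or more, where 10.4% of all genes did and genes of like length added up to 9.74. A summit recovered in all 3 replicates was also found at 9 of the 41, where 11.3% of all genes had one and genes of like length added up to 9.38. Both counts were thus close to those of genes of like length. The median gene held 0 summits in the list of 41 and also among all protein-coding genes.

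**Figure D1:**
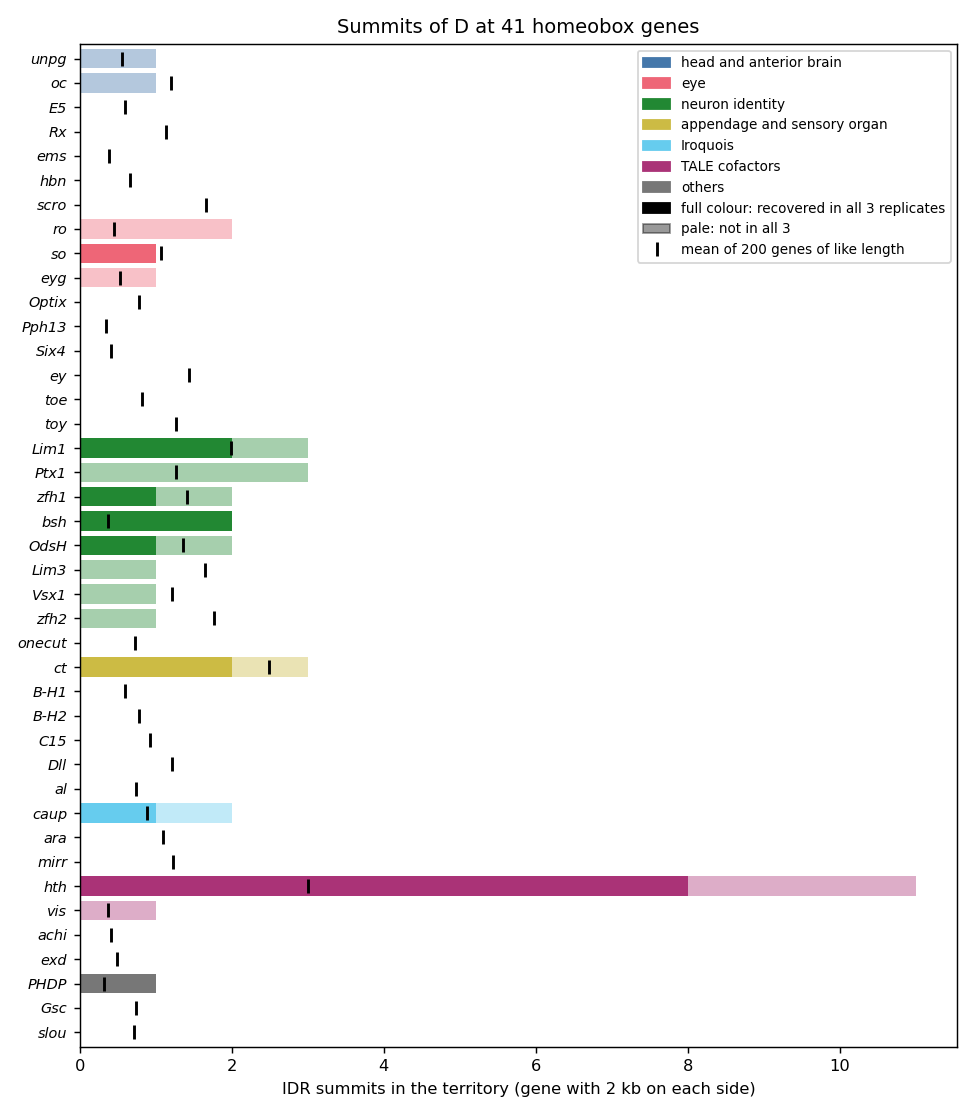
IDR summits in the territory of each of the 41 homeobox genes, grouped by role; full colour marks summits recovered in all 3 replicates, pale colour the rest, and the black tick the mean of 200 genes of like territory length. hth stands apart with 11 summits, 8 of them recovered in all 3 replicates. Of the 9 neuron identity genes 8 hold at least 1, where genes of like length add up to 4.98. At bsh, Lim3 and Vsx1 every summit lies nearer to the start of another gene. Roles were assigned with earlier results of these data known.

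The DNA under 6 of the summits is shown first: those of zfh1, hth, Lim1 and ct as tall examples, and the Ptx1 promoter as a contrast at a signal of 289. The tall summits of PHDP (553) and so (481), neither with an ACAAT match, are not printed, so the set does not represent how often the core occurs. Each window covers 201 bp of the Release 6 (dm6) reference, plus strand, centred on the summit. In the first 5 windows capitals mark ACAAT or its reverse complement ATTGT, and in the Ptx1 window they mark GAGAG or CTCTC. The second hth window was added after its values were seen, for its 4 matches.
zfh1 (chr3R:30781665-30781865): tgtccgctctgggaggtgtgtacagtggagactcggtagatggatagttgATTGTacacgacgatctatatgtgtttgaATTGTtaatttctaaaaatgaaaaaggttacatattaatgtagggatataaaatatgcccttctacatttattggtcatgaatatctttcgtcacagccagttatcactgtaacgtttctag
hth (chr3R:10537223-10537423): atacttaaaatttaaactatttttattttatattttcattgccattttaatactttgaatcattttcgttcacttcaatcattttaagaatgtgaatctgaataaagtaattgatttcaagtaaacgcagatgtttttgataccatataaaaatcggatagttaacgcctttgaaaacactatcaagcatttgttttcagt
hth (chr3R:10597680-10597880): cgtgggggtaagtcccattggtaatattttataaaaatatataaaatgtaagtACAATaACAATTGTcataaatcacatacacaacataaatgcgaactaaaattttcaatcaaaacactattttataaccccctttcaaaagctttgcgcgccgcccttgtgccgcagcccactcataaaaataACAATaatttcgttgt
Lim1 (chrX:8774147-8774347): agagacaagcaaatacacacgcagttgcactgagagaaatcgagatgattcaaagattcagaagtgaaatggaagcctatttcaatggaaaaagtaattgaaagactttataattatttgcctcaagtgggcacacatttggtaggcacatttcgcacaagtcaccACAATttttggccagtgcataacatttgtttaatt
ct (chrX:7618309-7618509): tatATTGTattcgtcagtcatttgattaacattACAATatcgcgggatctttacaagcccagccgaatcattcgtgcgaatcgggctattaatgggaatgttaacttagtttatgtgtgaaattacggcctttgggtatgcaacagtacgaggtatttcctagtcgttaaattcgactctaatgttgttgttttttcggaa
Ptx1 (chr3R:30912447-30912647): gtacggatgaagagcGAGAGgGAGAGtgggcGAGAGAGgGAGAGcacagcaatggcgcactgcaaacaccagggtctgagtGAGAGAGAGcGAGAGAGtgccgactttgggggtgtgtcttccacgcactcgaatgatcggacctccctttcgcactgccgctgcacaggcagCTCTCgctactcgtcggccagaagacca
The zfh1 window, the highest summit of the 41 genes, held its 2 matches at 19 and 48 bp from the summit. The highest hth window held no match and was 24.4% G and C, whereas the second hth window held 3 of its 4 matches within 45 bp of the summit. The Lim1 match lay 68 bp from its summit, and the ct matches lay 65 and 95 bp from theirs. The Ptx1 window, just before the Ptx1 start site, held no ACAAT and no TAAT but 11 overlapping GAGAG matches at 60.2% G and C.

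ACAAT, searched on both strands in windows of 201 bp, was present in 24 of the 39 summit windows of the homeobox genes (61.5%) and in 52.1% of all 5047 IDR windows. In windows of the same length centred 1000 bp to either side, it was present in 48.7% around these 39 and in 43.9% around all summits. The order of the members and all summits depended on the window: with 50 bp on each side it turned round, to 30.8% and 32.0%, and with 200 bp the shares were 76.9% and 74.3%. The Sox-type sequence ACAAAG was present in 20.5% of the 39 and in 16.3% of all windows. TAAT, the core that many homeodomains bind, was present in 30 of the 39 (76.9%) and in 91.9% of all windows, and the 39 windows had a higher median G and C content, 37.3% against 34.3%. In the flanking windows the order for TAAT was the other way round, with 87.2% around the 39 and 80.5% around all summits. CAGGTA, the sequence of the early activator Zelda, was present in 7.69% and 3.88%, and GAGAG in 25.6% and 23.0%. These shares describe the letters in a window and not a bound site. hth alone supplied 11 of the 39 windows, of which 8 held ACAAT and 11 held TAAT.

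Among the head and anterior brain genes, 2 of 7 held a summit, where genes of like length added up to 3.30. The 2 were orthodenticle (oc), a head gap gene that patterns the anterior brain, and unplugged (unpg), which is expressed at a boundary within the brain. The oc summit had a signal of 208 and lay 220 bp before the oc start site. It was not listed in replicate 1 and stood at ranks 3048 and 2608 in replicates 2 and 3. The unpg summit had a signal of 271 and lay 5603 bp downstream of the unpg start, in the sequence after the gene. Replicate 1 did not list it, and in replicates 2 and 3 its signals were 129 and 89.9. Neither summit was thus listed in replicate 1.

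The other 5 head genes, ems, E5, Rx, hbn and scro, had no IDR summit in their territories. ems (empty spiracles) is a head gap gene, and E5 is its neighbour and close relative. The span of 26936 bp between them held 2 IDR summits, both recovered in all 3 replicates, with signals of 307 and 269. The best pooled signals inside the territories were 107 at ems and 71.9 at E5. The nearest summit to ems, with a signal of 273, lay outside the span between the genes, 3309 bp from ems. When each summit was given to the gene with the nearest start site instead, ems received 5 summits and E5 received 1. Rx, the fly retinal homeobox gene, and homeobrain (hbn) are neighbours on 2R, and 1 summit of 281 lay between them, 2960 bp from Rx and nearest to the start of the actin gene Act57B. Inside their territories the pooled list reached 90.8 at Rx and 112 at hbn.

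scarecrow (scro), an NK2-class gene of the brain and visual system, gave different pictures in the replicates. Its territory on 3L (gene at 24724162 to 24758036, plus strand) held 19 regions of the replicate 1 list, the best at rank 2649, and 0 regions of the lists of replicates 2 and 3. The pooled list had 1 region there with a signal of 67.7, and the nearest IDR summit was 1812663 bp away. No other gene of the 41 was this far from an IDR summit: the next, exd, was at 89776 bp.

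Of the eye genes, 3 of 9 held a summit, against 4.03 from genes of like length. sine oculis (so), a SIX-class gene of the retinal determination network, had the highest of them at 481, placed 241 bp before the so start on 2R (gene at 7419350 to 7434872, plus strand). Its signals in replicates 1, 2 and 3 were 137, 146 and 184, and it ranked 644, 1760 and 1527 in those lists. As multiples of the list medians these were 4.43 ± 0.38 (SD, n = 3), a narrow spread. The so promoter summit was therefore recovered in every replicate.

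eyegone (eyg), a Pax gene of eye and antennal growth, held 1 summit of 205 at 135 bp before its start, listed in replicates 2 and 3 only. Its paralogue twin of eyegone (toe), lying 29868 bp away, held none and had a best pooled signal of 79.4. Between them stood 2 summits of 457 and 753, both recovered in all 3 replicates. The taller, 10495 bp from the eyg start, had signals of 171, 300 and 283 in the 3 replicates, or 7.06 ± 1.32 (SD, n = 3) list medians. Only the zfh1 summit among the 39 inside the territories was higher than 753. This span and the other spans between neighbouring members were chosen after their values were seen.

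rough (ro), which patterns photoreceptors R2 and R5, held 2 summits of 249 and 232 in a territory where genes of like length averaged 0.45. Each lay nearer to another gene. The first was inside an intron of T48, and the second was 51 bp from the start of ms(3)K81. Neither was listed in replicate 1.

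The Pax6 genes eyeless (ey) and twin of eyeless (toy), which start eye development, held no IDR summit. Both are on chromosome 4, and so are zfh2 and onecut. The replicate 1 list held 102 regions on that chromosome where replicates 2 and 3 listed 384 and 387, and the IDR list held 18. In the territories of the 4 genes the replicates listed 7, 49 and 51 regions. The ey territory held 3, 18 and 19 of them, and its best pooled signal of 170 reached 90.8% of the lowest IDR value. toy held 0, 10 and 9, with a best pooled signal of 105. Whether the low count of replicate 1 on chromosome 4 kept ey and toy off the IDR list was not tested.

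Optix and Six4, the other SIX-class genes, came near to the IDR list without entering it. Optix had a best pooled signal of 171, which is 91.2% of the lowest IDR value, and an IDR summit of 237 lay 2602 bp outside the gene, so just beyond its territory. By nearest start site Optix received 2 summits. Six4 had a best pooled signal of 175, or 93.2% of the lowest IDR value, with no region in replicate 1. Pph13, needed for photoreceptor differentiation, had a best pooled signal of 51.6, the lowest of the genes with any pooled region.

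Of the neuron identity genes, 8 of 9 held a summit, where genes of like length added up to 4.98, and together they held 15. The roles were assigned with earlier results of these data known, so the ratio of 1.61 is a description and supports nothing further. The 8 were zfh1, Lim1, OdsH, bsh, Ptx1, Lim3, Vsx1 and zfh2. At bsh, Lim3 and Vsx1 every summit lay nearer to the start of another gene. The 15 include 2 bsh summits that match the same region in each replicate. At 4 of them, zfh1, Lim1, OdsH and bsh, a summit was recovered in all 3 replicates.

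zfh1 is a zinc finger and homeodomain gene needed for the exit of motor axons and for parts of the mesoderm (3R, 30765926 to 30789202, plus strand). Its main summit, in an intron 15839 bp from the gene start and 1493 bp from an internal start site, had a signal of 826 and ranked 481 among the 5047. Signals in replicates 1, 2 and 3 were 217, 310 and 301, at ranks 301, 446 and 603. In list medians this was 7.84 ± 0.94 (SD, n = 3), the highest value at any of the 41 genes in the mean over replicates. A second summit of 247, in an intron 1377 bp after the gene start, was not listed in replicate 1.

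Lim1, a LIM-homeodomain gene of head and interneurons (X, 8756539 to 8805804, minus strand), held 3 summits in a territory of 53266 bp where genes of like length averaged 1.99. The summits of 543 and 380 lay in introns, 3061 bp apart and 11106 and 8045 bp from the nearest Lim1 start site. The higher had signals of 127, 190 and 225 in the replicates, or 5.05 ± 0.47 list medians (SD, n = 3), and the lower 3.43 ± 0.46 (SD, n = 3). The third, of 189, lay after the gene at rank 5011 of 5047 and was recovered in no replicate.

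OdsH, a homeobox gene of motor neurons and testis (X, 17791010 to 17814011, plus strand), had summits of 334 and 201, both in introns. Signals at the first were 90.4, 112 and 117, which is 3.04 ± 0.29 list medians (SD, n = 3). At the second summit replicate 1 alone gave a recovery, with ranks of 2096, 5507 and 6229.

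brain-specific homeobox (bsh), which specifies lamina neurons of the visual system, had 2 summits only 199 bp apart, with signals of 350 and 256. They lay 138 and 337 bp from the start of fbp and over 4 kb from the bsh start, and both matched the same region in each replicate list. That region had signals of 63.8, 92.2 and 162 in replicates 1, 2 and 3. The bsh summits are thus 1 region in each replicate, next to another gene's promoter.

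Ptx1, the fly PITX gene, held 3 summits in a territory of 21929 bp where the like-length mean was 1.27. The highest, 289, is the GAGAG-rich promoter window printed above, 207 bp before the Ptx1 start (3R, 30912754 to 30930682, plus strand). Replicate 1 did not list it, while replicates 2 and 3 gave signals of 159 and 114 at ranks 1545 and 3299. The other summits, both of 200, lay in an intron and after the gene. No Ptx1 summit was recovered in all 3 replicates.

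Lim3, which specifies motor neurons that send axons to ventral muscles, had 1 intronic summit of 245, with the start of CG17344 nearest. Vsx1, a gene of optic lobe progenitors, had 1 intronic summit of 213. zfh2, a zinc finger homeobox gene on chromosome 4, had 1 intronic summit of 205 that replicate 1 did not list. onecut, expressed in most neurons as they differentiate, was the exception: its best pooled signal was 63.7 and the nearest IDR summit lay 52474 bp away.

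**Figure D2:**
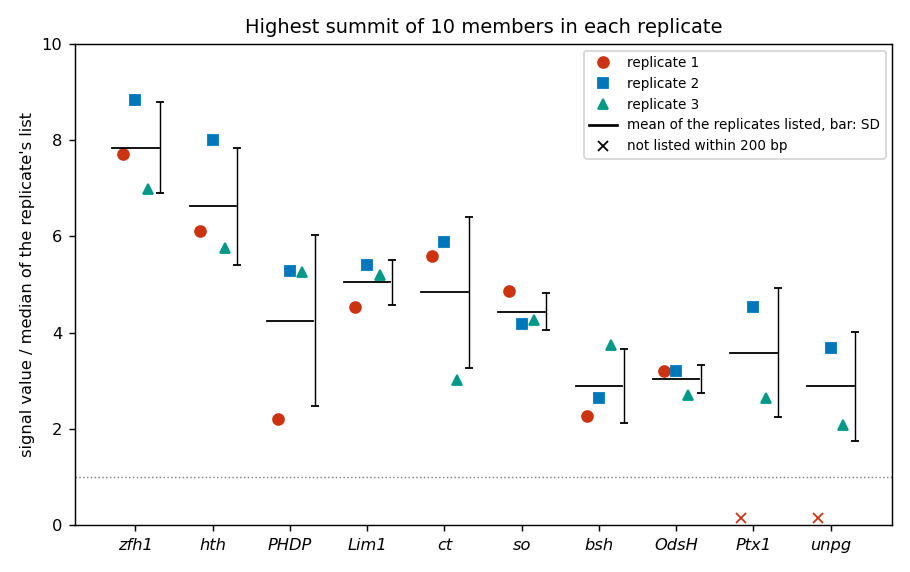
Signal of the highest summit of 10 homeobox genes in each replicate, divided by the median of that replicate's list (symbols), with the mean of the replicates that list it (line) and its SD (bar); crosses mark a replicate with no region within 200 bp. zfh1 is highest with a mean of 7.84, and the replicate 1 symbol is missing at Ptx1 and unpg.

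Of the appendage and sensory organ genes only cut (ct) held summits, 1 of 6 where genes of like length added up to 3.12. ct sets the identity of external sensory organs and is long (X, 7608428 to 7678859, plus strand). Its 3 summits of 500, 354 and 224 lay in introns, against a like-length mean of 2.49. At the highest, replicates 1, 2 and 3 gave signals of 157, 206 and 130 at ranks 529, 991 and 2661, so replicate 3 placed it lower than the other replicates. The mean was 4.83 ± 1.58 list medians (SD, n = 3). The second summit lay 1306 bp from the first and was also recovered in all 3 replicates.

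Distal-less (Dll), which starts the limb primordia, aristaless (al) and C15, which act at the leg tip, and the paired Bar genes B-H1 and B-H2, which act in sensory organs and distal leg, had no IDR summit. Dll had a best pooled signal of 85.7, although replicates 2 and 3 each listed a region there within their first 5047, at ranks 4346 and 4002. al reached a pooled signal of 93.7, C15 114.7, B-H2 148 and B-H1 88.1. Regions within the first 5047 of a replicate were also listed at B-H2, at ranks 3818 and 4853 in replicates 1 and 2. In replicate 1 they were listed at C15 and al, at ranks 3453 and 4092, and B-H1 had none in any replicate. The 73302 bp between the Bar genes held no IDR summit and 29 pooled regions, the best at 139. C15 had its nearest IDR summit 6241 bp away and received 1 by nearest start site. In the 35846 bp between C15 and slouch (slou) lay a summit of 1402, which was higher than any inside the 41 territories but only 548 bp from the start of another gene, sp3.

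The Iroquois genes araucan (ara), caupolican (caup) and mirror (mirr), which pattern the dorsal head, eye and sensory bristles, lie side by side on 3L. Only caup held summits in its territory, 1 of 3 against 1.67 from genes of like length. One of 199 lay 155 bp before its start and was not listed in replicate 1, and one of 247, in an intron 9578 bp after the start, was recovered in all 3 replicates. Most summits of this cluster lay between the genes. The 71840 bp between caup and mirr held 5, with signals from 198 to 456, of which 2 were recovered in all 3 replicates. The highest had signals of 58.9, 166 and 225 in replicates 1, 2 and 3. The 13612 bp between ara and caup held 2, one of them the caup promoter summit. ara itself reached a pooled signal of 171 and mirr 145, and by nearest start site caup received 5 summits and mirr 3.

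The 4 genes grouped here as TALE cofactors, hth, exd, achi and vis, gave the most and the least among the 41. hth, the fly MEIS gene, encodes the partner that brings the PBC-class protein Extradenticle (exd) into the nucleus, where both bind DNA with Hox proteins. hth (3R, 10507561 to 10639568, minus strand) held 11 summits in a territory of 136008 bp that overlaps no other protein-coding gene. The 200 genes nearest in length, with territories of 66448 to 183439 bp, averaged 3.00 summits with a median of 2, and 11 of the 200 held 11 or more. Among all 13945 genes 19 held at least 11, hth included. None of the 43 other homeobox genes of the genome that were counted reached 11, the most being 7 at Antp. All 43 have shorter territories than hth, the longest being the 106976 bp of Antp, so these counts are not matched for length. hth thus lies in the upper tail of long genes, without being the extreme of it.

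The hth summits spread along the whole gene. One lay 1916 bp before the gene start with a signal of 225, and 10 lay in introns. Counted from the gene start, those at 3372, 11144 and 13316 bp had signals of 359, 276 and 246. At 41788 bp the signal was 498, and the 4 between 70785 and 78790 bp ran from 194 to 258. The highest, 695 at rank 690, lay at 102245 bp and was 76953 bp from the nearest of the 2 hth start sites. The last, at 118893 bp, had 275. Neighbouring summits were 1699 to 28997 bp apart, and 6 of the 11 had another within 5 kb.

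Recovery at hth was higher than over the IDR list, with 8, 11 and 11 of the 11 summits in replicates 1, 2 and 3. At the highest summit the replicate signals were 172, 281 and 249, at ranks 448, 558 and 886, or 6.63 ± 1.21 list medians (SD, n = 3). At the second highest the mean was 4.43 ± 1.38 (SD, n = 3). Both stood above the other hth summits in replicates 2 and 3. Of the 11 windows, 8 held ACAAT and all 11 held TAAT, which 52.1% and 91.9% of all IDR windows held.

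**Figure D3:**
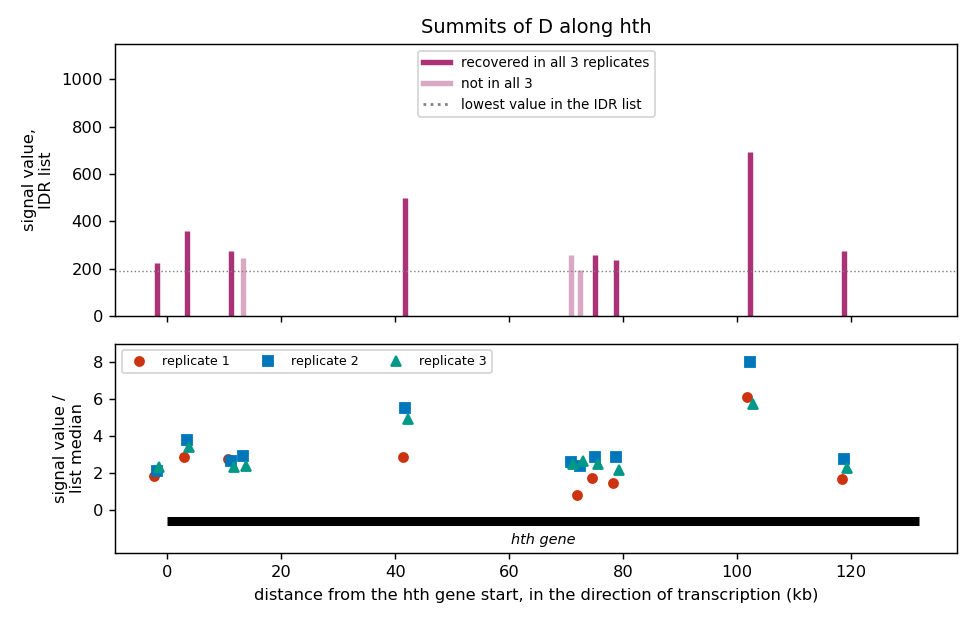
Signals of the 11 IDR summits along hth by distance from the gene start in the direction of transcription (upper panel, dotted line at the lowest IDR value of 188), and the same summits in each replicate as multiples of the list median (lower panel, black bar for the gene). The summits at 41788 and 102245 bp rise above the rest, and 3 summits are not recovered in replicate 1.

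exd had no IDR summit, a best pooled signal of 78.6, and none listed in replicate 1. The neighbouring TGIF-class genes achintya (achi) and vismay (vis), nearly identical copies that act in spermatogenesis, are 918 bp apart. vis held 1 summit of 270, inside fdl and 694 bp from the fdl start, and achi had no region of the pooled list at all, the only one of the 41 without any. Reads that fit both copies could not be followed here, so values inside these genes are uncertain.

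Among the remaining genes, PHDP, a homeobox gene of unclear function in the fly, held 1 summit of 553 in the shortest territory of the 41, at 5305 bp. It lay 496 bp before the PHDP start on 2R (gene at 23883136 to 23884440, minus strand). Signals in replicates 1, 2 and 3 were 61.9, 185 and 227, or 4.24 ± 1.77 list medians (SD, n = 3), with replicate 1 well below the others. goosecoid (Gsc), expressed in the foregut and brain, had a best pooled signal of 80.3. slou, an NK1-class gene of muscle founder cells and neurons, had 137.

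**Figure D4:**
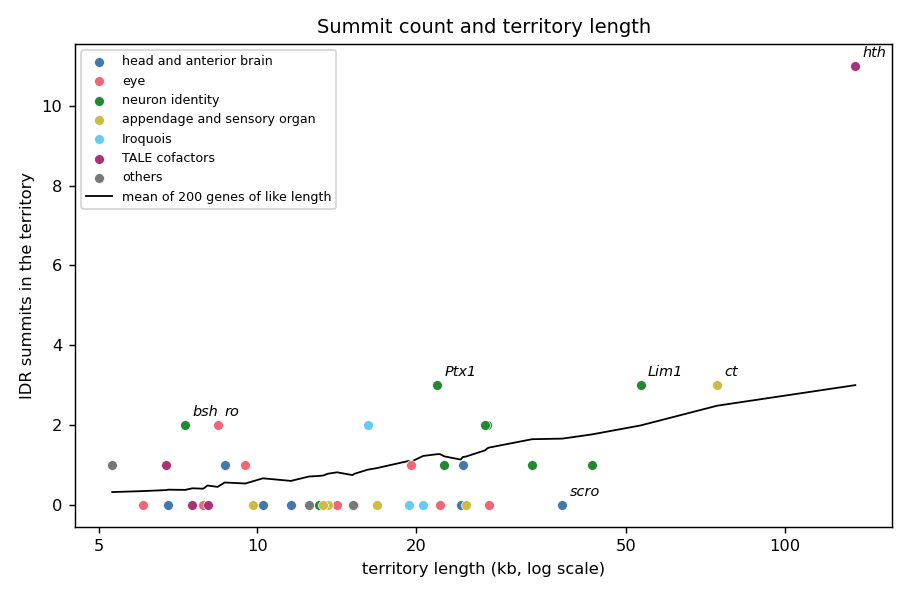
IDR summits per gene against territory length on a log scale for the 41 homeobox genes, coloured by role, with the mean of 200 genes of like length as a line. Counts of 0 occur up to the 37875 bp of scro, and hth lies far above the line at 136008 bp.

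Taken by height, the 39 summits were not among the tallest of the genome. Their median signal was 256 against 310 for the whole IDR list, and 12 of the 39 stood above the list's median. By recovery, 22, 36 and 34 of the 39 were recovered in replicates 1, 2 and 3, which is 56.4%, 92.3% and 87.2%. In all 3 replicates 19 were recovered, 48.7% against 38.5% of all IDR summits. Outside hth the figure was 11 of 28. The 19 and the 11 both include the 2 bsh summits, which match the same region in each replicate. Another 14 of the 39 were recovered in replicates 2 and 3 but not in replicate 1, a pattern that 36.5% of all IDR summits showed.

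Introns held 26 of the 39 summits (66.7%), positions within 500 bp of any protein-coding start 9 (23.1%), sequence between genes 4 (10.3%), and exons none. Since the 39 were counted within territories, the nearer comparison is with summits in the territories of genes of like length, of which 53.1% were in introns, 38.1% near a start and 6.97% between genes. hth supplied 10 of the 26 intronic summits, and without it introns held 16 of 28 (57.1%) and start sites 9 of 28 (32.1%). 6 genes, oc, so, eyg, caup, Ptx1 and PHDP, had a summit within 500 bp of their own start, where 15.3% of all genes did and genes of like length added up to 9.23. For 29 of the 39 the nearest start site belonged to the homeobox gene itself. For ro, bsh, Lim3, Vsx1 and vis every summit lay nearer to the start of another gene, so 13 of the 18 genes had a summit nearest to their own start.

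Of the 23 genes without an IDR summit, 22 had at least 1 region in the pooled list, which was deposited as peaks and background. Such a region was common. Over the whole list of homeobox genes 40 had one, where genes of like length added up to 34.2. A pooled region alone therefore does not show binding. The counts below for the 23 genes were not compared with those of other genes. At 4 genes, Six4, ara, Optix and ey, the best pooled signal was at least 90% of the lowest IDR value, and at 11 it was under 50%. An IDR summit lay within 5 kb of 6 of these genes and within 20 kb of 16, and the median distance from gene to summit was 10526 bp. None lay within 50 kb of scro, B-H1, exd and onecut.

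**Figure D5:**
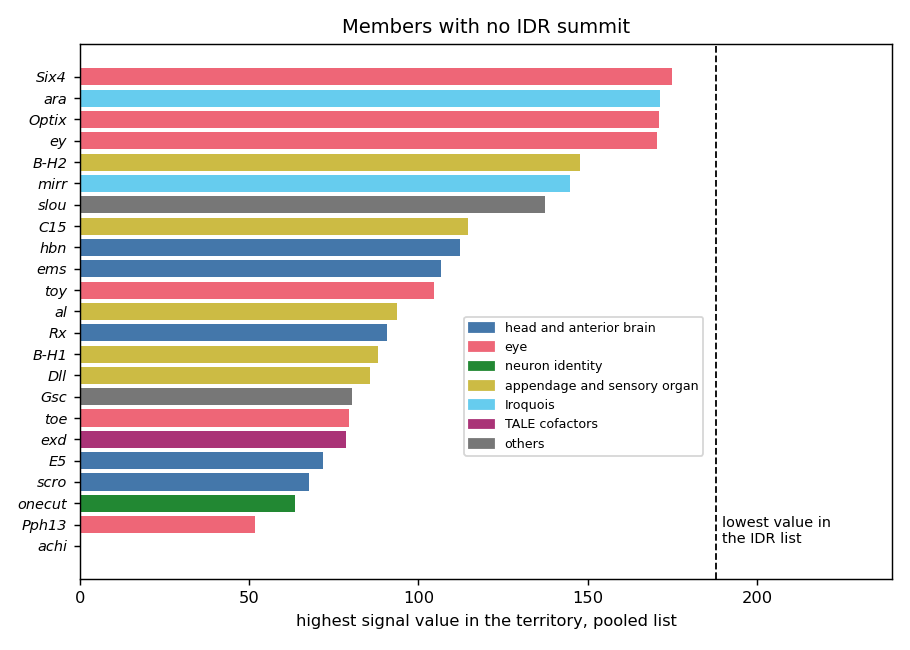
Highest signal of the pooled list in the territory of each of the 23 homeobox genes with no IDR summit, coloured by role, with the lowest IDR value of 188 as a dashed line. Six4, ara, Optix and ey end just below the line at 170 to 175, and achi has no pooled region.

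By chromosome arm, summits were held by 5 of the 8 genes on X, 2 of 5 on 2L, 4 of 9 on 2R, 2 of 7 on 3L, 4 of 8 on 3R and 1 of 4 on chromosome 4. The share over all genes of each arm was not computed and territory lengths differ, so these counts do not compare the arms. Replicate 1 listed 3897 regions on X where replicates 2 and 3 listed 5400 and 5313. Of the 5 X-linked genes with a summit, ct, Lim1 and OdsH had their highest summit recovered in all 3 replicates, the oc summit was not listed in replicate 1, and the Vsx1 summit was recovered in replicates 1 and 2 only.

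Genes that act with these homeobox proteins were counted in the same way. Of 12 such partners, 7 held a summit, where genes of like length added up to 5.21. dachshund (dac), a nuclear factor of the retinal determination network, held 2 with a highest signal of 324. eyes absent (eya), the phosphatase that partners so, held 1 of 224. Ssdp, a partner of the LIM cofactor, held 2, and CtBP, tsh, salm and dan held 1 each, with highest signals from 202 to 270. Chi, the LIM cofactor itself, and ato, danr, salr and tio held none. No summit of a partner gene was recovered in all 3 replicates. Of the 43 other homeobox genes, Hox, pair-rule and segment polarity genes included, 24 held a summit, 1.20 times the like-length sum of 19.9, and whether this differs from the 0.90 of the 41 genes was not tested.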

How the data were processed

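Chromatin immunoprecipitation sequencing of D-eGFP embryos was measured in 3 replicates that the labels call biological and that form 1 group. The signal values used here are the heights that the authors deposited for each peak, with the summit offset, in dm6 lists per replicate, for the pooled replicates and after the IDR procedure. The aligner, peak caller, IDR threshold, unit of the signal and sequencing depth were not given in the sources used here, so no interval on a height was made. Lists on the older build dm3 were not used.

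Genes and start sites came from Ensembl release 115 and sequence from the RefSeq copy of the same Release 6 assembly. All 41 symbols matched. Summits were counted per territory, compared with the 200 genes nearest in territory length, and matched to replicate summits within 200 bp. Start-site, exon, intron and intergenic positions were taken in that order. SDs are over the replicates that list a summit. Counting was tested on simulated lists. Python 3.11.15, numpy 2.4.6, pandas 2.3.3, scipy 1.17.1 and matplotlib 3.10.9 were used.

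The genes, roles and partner lists were chosen with earlier results of these data known. Genes named in detail were the 10 with the highest summit and the 5 with the most summits, and every other gene of the 41 is accounted for by role. Alternatives changed the territory, the list, the recovery rule, the number of like-length genes, the motif window and the replicates used.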

Additional observations from a re-analysis of the deposited data

How the results depend on the processing

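The count of 18 homeobox genes with a summit became 10 (24 summits in place of 39) when only the gene body was counted, 28 (71) with 10 kb on each side, 8 (12) in the upper 50% of IDR peaks, 40 (359) in the whole pooled list, and 9 (19) when recovery in all 3 replicates was asked. When recovery was asked in only a pair of replicates, leaving out each in turn, the counts ran from 9 to 17 genes and from 19 to 33 summits. Leaving out replicate 1 gave 17 genes and 33 summits, leaving out replicate 2 gave 9 and 19, and leaving out replicate 3 gave 10 and 21, so the fall came with asking for replicate 1. No peak list was remade. With 5 kb on each side (24 genes, 50 summits) and by nearest start site (19, 55) the counts stayed within 1.5 times. The ratio to genes of like length ran from 0.59 in the upper 50% of IDR peaks to 1.21 by nearest start site. ACAAT was present in 30.8% of the 39 summits with 50 bp on each side and in 76.9% with 200 bp, where all IDR summits had 32.0% and 74.3%, so the order of the shares turned round at 50 bp. The comparisons of positions within territories and of positions without hth were added after the data were seen. Of 110 recomputed counts of the 10 genes with the highest summits, 67 stayed within 1.5 times and 43 did not. No paired analysis was possible because there is 1 group. Depth is unknown, so a gene without a summit is one with none detected in these lists.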
